A study of Homo sapiens with 12 samples.

Results

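The 8 arrays of analogue-treated cells were compared by their own heat shock signal, 4 arrays on which HSPA6 was high against 4 on which it was low, and they make up 8 of the 12 arrays of the series. HSPA6 is a strictly stress-inducible gene of the HSP70 chaperone family. U2OS, a human osteosarcoma line, had been given the synthetic strigolactone analogue ST362, the analogue MEB55, or the acetone vehicle alone, for 6 h or 24 h. Both analogues were used at 5 ppm, so they were matched by mass. Each of the 6 labelled groups holds 2 arrays, and all come from 1 cell line without genetic change.

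The arrays were grouped by their HSPA6 signal in the deposited, non-normalized values (log2 above the vehicle mean of 4 arrays), with a level above 3 called high. That level was 3.89 on ST362 6 h replicate 1, 4.55 on MEB55 6 h replicate 1, 4.59 on ST362 24 h replicate 2 and 6.16 on MEB55 24 h replicate 2, the high arrays. It was 0.04 on ST362 6 h replicate 2, 0.28 on MEB55 6 h replicate 2, 0.04 on ST362 24 h replicate 1 and 0.02 on MEB55 24 h replicate 1, the low arrays, and -0.09 to 0.18 on the vehicle arrays. The threshold thus fell between 3.89 just inside and 0.28 just outside. This grouping crosses the time labels: each labelled analogue group holds 1 high and 1 low array, replicate 1 being high at 6 h and replicate 2 at 24 h. The time labels of the high and of the low arrays oppose each other in genes that differ between the time labels on vehicle (values given with the time labels). Times are therefore named here as labelled. Because a measured value of these same arrays chose the groups, no test was run between high and low arrays, and HSPA6 is left out of the results.

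Cells meet unfolded protein with separate programmes in separate compartments. In the cytosol and nucleus, heat shock factor HSF1 is released from chaperones, binds repeats of the unit GAA in promoters (heat shock elements) and drives HSP70, its J-domain partners and its nucleotide exchange factors. In the endoplasmic reticulum, the sensors PERK, IRE1 and ATF6 raise resident chaperones such as BiP, and PERK also slows translation and raises ATF4 and CHOP, a branch shared with amino acid shortage and oxidant stress. NRF2 and HSF1 both act on HMOX1, the heme-degrading enzyme. Small RNAs made by RNA polymerase III or processed in the nucleolus, such as 7SK and U3, serve the control of transcription elongation and ribosome assembly.

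Promoter stretches of genes that were higher on the high arrays are shown because the stress programmes are defined by such elements. They come from RefSeq on GRCh38.p14, on the gene's strand, and lie within a window of 250 bases before to 50 after each start. Capitals mark a match. HSPA1A (an inducible HSP70, chr6:31815397-31815484, plus strand) and ZFAND2A (an arsenite-inducible zinc finger protein of the proteasome, chr7:1160320-1160407, minus strand) show the paired heat shock unit, GAANNTTC or TTCNNGAA. SERPINH1 (HSP47, the collagen chaperone, chr11:75562137-75562229, plus strand) shows the tripled unit, GAANNTTCNNGAA or TTCNNGAANNTTC. HSPA5 (BiP, chr9:125241351-125241449, minus strand) and FICD (the enzyme that AMPylates BiP, chr12:108515083-108515181, plus strand) show the endoplasmic reticulum stress element, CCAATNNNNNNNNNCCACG. CHAC1 (a glutathione-degrading enzyme downstream of ATF4 and CHOP, chr15:40953222-40953309, plus strand) shows the C/EBP-ATF element, TGATGNAA, on the opposite strand.
HSPA1A: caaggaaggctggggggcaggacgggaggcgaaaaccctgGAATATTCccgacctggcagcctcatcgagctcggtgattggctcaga
ZFAND2A: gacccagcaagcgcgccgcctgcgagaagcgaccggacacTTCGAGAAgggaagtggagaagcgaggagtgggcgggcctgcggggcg
SERPINH1: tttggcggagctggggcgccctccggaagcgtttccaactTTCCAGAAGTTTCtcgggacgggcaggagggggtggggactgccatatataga
HSPA5: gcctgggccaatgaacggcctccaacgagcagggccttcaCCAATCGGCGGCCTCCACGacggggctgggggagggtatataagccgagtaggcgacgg
FICD: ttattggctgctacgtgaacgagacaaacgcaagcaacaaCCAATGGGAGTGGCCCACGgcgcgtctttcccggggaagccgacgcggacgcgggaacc
CHAC1: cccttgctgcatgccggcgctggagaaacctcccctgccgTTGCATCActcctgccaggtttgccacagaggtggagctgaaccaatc

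Both strands were searched, and matches of the paired unit include those of the tripled one. The paired unit occurred in 13.5% of all 35116 promoter windows, in 14.1% of the windows of 9453 tested genes, and in 25 of the 87 genes higher on the high arrays that have a window (28.7%). Of the genes lower on the high arrays it occurred in 5 of 38 (13.2%). The tripled unit was in 0.49% of all windows and in 2 of the 87. The endoplasmic reticulum stress element was in 0.0769% of all windows, 15 of the 9453 tested genes and 2 of the 87, HSPA5 and FICD. The C/EBP-ATF element was in 3.62% of all windows and 2.89% of the tested genes. It was in 7 of the 87 (8.05%) and 3 of the 38 lower genes (7.89%), too few genes to compare the directions. These matches describe letters in a window and are not shown to be bound.

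A gene was called when its log2 difference, high minus low with the compound as covariate, was at least 1 in size (2-fold) and the 4 high and 4 low arrays did not overlap. Signals were background-corrected and quantile normalized, and a level is the log2 value above or below the vehicle mean. Array levels are listed in the order ST362 6 h, MEB55 6 h, ST362 24 h, MEB55 24 h. Of 11810 genes tested, 111 were called higher on the high arrays (0.94%) and 57 lower (0.483%). Without the fold minimum, 968 genes lay higher with no overlap (8.2%) and 905 lower (7.66%). These shares are the background for every count given here, and nothing is read from them, since the rule used this contrast. With no background correction, which shrinks differences of dim genes, the counts were 34 and 20. The median residual SD of a gene was 0.205 on the log2 scale. In bulk RNA, fewer cells of a type and less RNA per cell cannot be told apart.

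BAG3, DNAJA4 and DNAJB1, partners of HSP70 in the cytosol, were higher on all 4 high arrays and stood near vehicle on the low ones. BAG3, the nucleotide exchange factor that couples HSP70 to autophagy, was at 2.19, 2.62, 2.04 and 3.09 on the high arrays and at 0.19, 0.05, -0.24 and -0.10 on the low ones, a difference of 2.51. DNAJA4, a J-domain co-chaperone, was at 2.48, 3.11, 2.14 and 3.34 against -0.10, -0.35, -0.21 and 0.10, a difference of 2.91. DNAJB1 (HSP40), the J-domain protein that delivers substrates to HSP70, was at 2.16, 2.07, 2.11 and 2.76 against -0.03, -0.12, -0.13 and -0.11, a difference of 2.37. For all 3 genes the lowest high array stood above every vehicle array, and the vehicle arrays ranged from -0.25 to 0.34.

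DNAJB4, another J-domain protein of the cytosol, was at 1.07, 1.39, 1.61 and 2.05 on the high arrays and near or below vehicle on the low ones, at -0.19, -0.42, -0.18 and -0.76. ZFAND2A was at 1.64, 2.45, 1.74 and 3.14 against -0.04, 0.33, 0.05 and 0.70. SERPINH1 was at 0.35, 1.01, 0.98 and 1.48 against -0.24, -0.43, -0.49 and -0.53, with ST362 6 h the weakest of the high arrays. The inducible HSP70 genes differed by 3.13 (HSPA1A) and 3.70 (HSPA1B), and their relative HSPA1L by 1.75. The HSPA6 relative HSPA7 differed by 4.81 and the small heat shock gene HSPB8 by 1.53. HSPA7 resembles HSPA6 and HSPA1B resembles HSPA1A almost base for base, and whether a probe also bound its gene's relative was not tested.

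The HSP70 family and its exchange factors had 5 of 16 measured members called higher and 0 lower, with a median difference of 0.50, against a median of -0.01 and 1.42% called over all genes tested. The cytosolic J-domain list had 3 of 15 higher (median 0.40), with 5 higher and 1 lower without overlap. The latter, DNAJA2, a constitutive J-domain protein, was at -0.18, -0.36, -0.32 and -0.24 on the high arrays and at -0.06, 0.27, -0.11 and 0.05 on the low ones. HSP90, the chaperonin and their co-chaperones had 0 of 21 called, yet 12 of the 21 lay higher with no overlap and the median was 0.39. Among them CACYBP, a partner of HSP90 and ubiquitin ligases, differed by 0.90, the immunophilin FKBP4 by 0.71, HSP90AB1 by 0.68, STIP1, which bridges HSP70 and HSP90, by 0.64, and HSP90AA1 by 0.57. Another probe of CACYBP differed by 0.14, and of 2 other probes of HSP90AA1 one differed by 0.58 and one by 0.02. HSP90AB1 stood at 0.32, 0.40, 0.37 and 0.45 on the high arrays and at -0.20, -0.28, -0.32 and -0.37 on the low ones, so that a difference under 2-fold came with little spread inside each set. Proteasome subunits had 0 of 27 called (median 0.10).

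**Figure D1:**
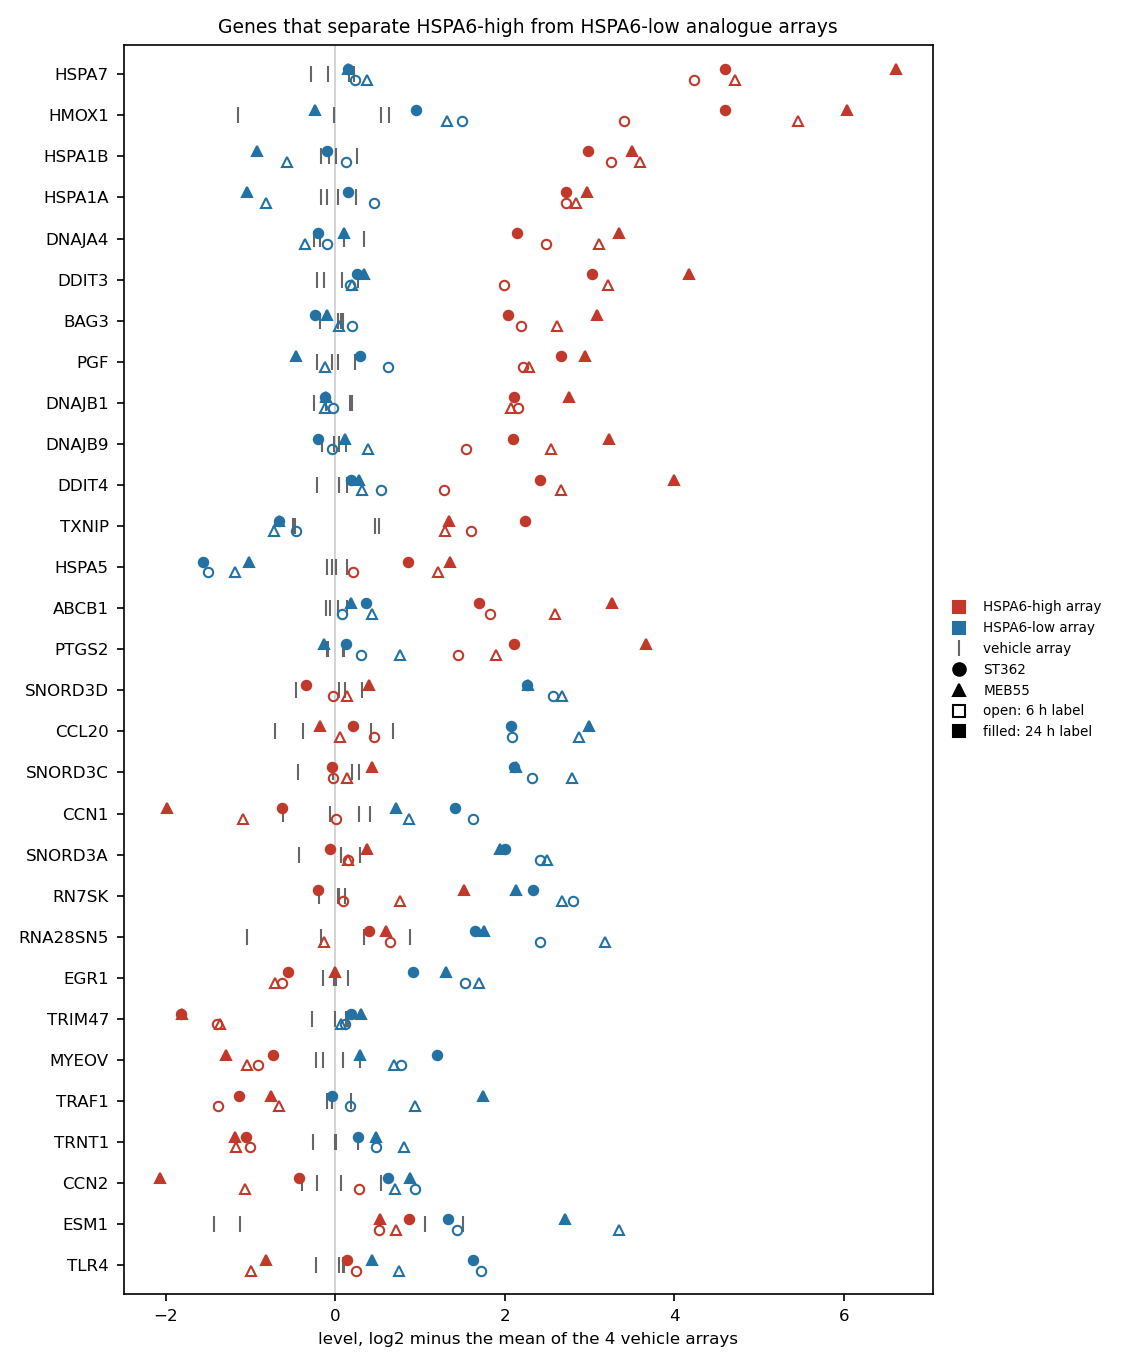
Levels of named genes (rows) on each array (log2 minus the vehicle mean, horizontal axis), with 1 symbol per array: red high, blue low, grey bars vehicle, circles ST362, triangles MEB55, open 6 h and filled 24 h labels. BAG3, DDIT3 and HSPA5 stood above every vehicle array on the high arrays, whereas SNORD3A stood at 1.95 to 2.50 on the low arrays and at -0.07 to 0.37 on the high ones.

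HSPA5, MANF and CREB3L2, genes of the endoplasmic reticulum and secretory pathway, left the vehicle range on both sets of arrays. HSPA5 was at 0.21, 1.21, 0.85 and 1.35 on the high arrays and at -1.5, -1.19, -1.56 and -1.01 on the low ones, with vehicle from -0.10 to 0.13, a difference of 2.22. MANF, a secreted survival factor that binds BiP, was at 0.21, 0.56, 0.67 and 0.68 against -0.88, -0.29, -0.98 and -0.34, a difference of 1.15. CREB3L2, a membrane-bound transcription factor of the secretory pathway, was at 0.84, 0.69, 0.97 and 1.00 against -0.77, -0.65, -0.66 and -0.45. All 3 genes were above every vehicle array on the high arrays and below every vehicle array on the low ones, and on the low arrays HSPA5 was the farthest from vehicle.

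DNAJB9 (ERdj4), the J-domain partner of BiP, was at 1.54, 2.54, 2.10 and 3.23 on the high arrays and at -0.05, 0.38, -0.21 and 0.12 on the low ones. FICD was at 0.40, 1.88, 1.22 and 1.80 against -0.61, -0.22, -0.09 and -0.34, and EIF2AK3, which encodes the sensor PERK, at 0.48, 0.68, 1.14 and 1.61 against 0.26, -0.16, 0.21 and -0.52. Of 23 measured endoplasmic reticulum chaperones and XBP1 targets, 3 were called higher and 0 lower (median difference 0.36), and 10 lay higher with no overlap. The list as a whole stood near vehicle on the low arrays, with medians of -0.03, 0.11, -0.09 and 0.00, against 0.20, 0.35, 0.45 and 0.64 on the high ones. Those below the fold minimum included HYOU1, the large HSP70 of the compartment (0.91), DNAJC3, an inhibitor of PERK (0.86), and the ubiquitin ligase SYVN1 (0.79).

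DDIT3, which encodes CHOP, was at 1.99, 3.22, 3.03 and 4.17 on the high arrays and at 0.17, 0.20, 0.26 and 0.33 on the low ones, a difference of 2.86. DDIT4 (REDD1), an inhibitor of mTORC1, was at 1.29, 2.67, 2.42 and 4.00 against 0.54, 0.31, 0.19 and 0.28, and CHAC1 at 0.94, 2.11, 1.67 and 2.42 against 0.23, 0.41, 0.13 and 0.68. On both DDIT3 and DDIT4 the order of the high arrays was the same, with ST362 6 h lowest and MEB55 24 h highest. SESN2, a stress-induced inhibitor of mTORC1, was at 0.70, 1.41, 1.21 and 2.38 against 0.28, 0.18, -0.32 and 0.37. GDF15, a secreted stress cytokine, was at 2.48, 3.71, 2.88 and 4.27 against 2.03, 1.36, 2.45 and 1.33, so that the low arrays were also far above vehicle (-0.37 to 0.32). The list of ATF4 and CHOP regulators and targets had 5 of 18 called higher and 0 lower (median 0.58). Amino acid synthesis and transport genes, which ATF4 also drives, had 1 of 20 called, SLC3A2, the heavy chain of amino acid transporters (1.02), and a median of 0.03. Aminoacyl-tRNA synthetases had 0 of 8 (median -0.01).

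HMOX1 was at 3.41, 5.46, 4.60 and 6.04 on the high arrays, at 1.49, 1.32, 0.95 and -0.24 on the low ones and from -1.15 to 0.63 on vehicle, a difference of 4.00. Of the 18 genes of the NRF2 list 2 were called higher, HMOX1 and GCLC, 5 lay higher and 1 lower with no overlap, and the median was 0.03. GCLC, the catalytic subunit of glutathione synthesis, was at 0.04, 0.45, 0.93 and 1.01 against -0.15, -0.38, -0.95 and -0.43, and both sets overlapped the vehicle range of -0.59 to 0.75, and its other probe differed by 0.55 with overlap. GCLM, the partner subunit of GCLC, differed by 0.92, the small MAF factor MAFG by 0.76 and SRXN1 by 0.39, and all 3 stood above vehicle on the high arrays. TXNRD1, thioredoxin reductase, the member without overlap in the other direction, lay lower on the high arrays by 0.82, with levels of 0.29, -0.03, 0.27 and 0.14 against 0.79, 0.64, 1.20 and 1.30. MT1X, a metal-binding metallothionein, was at 1.21, 0.73, 0.80 and 0.05 against -1.21, -0.84, -0.92 and -0.53, and was the only one of 5 measured genes of the metallothionein list to be called.

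Genes outside the stress lists were also called higher. PGF, a growth factor of the VEGF family, was at 2.21, 2.28, 2.67 and 2.95 on the high arrays and at 0.62, -0.13, 0.28 and -0.47 on the low ones. ABCB1, the drug efflux pump P-glycoprotein, was at 1.82, 2.59, 1.70 and 3.26 against 0.08, 0.43, 0.36 and 0.19. PTGS2 (cyclooxygenase-2) was at 1.44, 1.90, 2.11 and 3.66 against 0.30, 0.76, 0.12 and -0.14. For these genes, too, MEB55 24 h was the highest array. ULBP2, a ligand of the natural killer receptor NKG2D, differed by 1.94 and TXNIP, an inhibitor of thioredoxin and glucose uptake, by 2.25. The vehicle arrays of TXNIP split by replicate number, at 0.52 and 0.46 for replicate 1 and at -0.48 and -0.50 for replicate 2. Its low arrays, at -0.47 to -0.73, lay near or below the lower end of that range. RFPL2 and RNF43 were not detected on the low arrays, where only a bound holds, at least 2.53-fold and at least 1.69-fold higher. Both passed the detection filter only through the high arrays, so the filter fixed their direction and nothing is read from it. DUT, the dUTPase of replicating cells, differed by 1.15 in its brightest probe, 1.09 in another and -0.33 in the remaining one, so its direction depends on the probe.

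Genes lower on the high arrays included the U3 copies and 7SK, small noncoding RNAs that stood well above vehicle on the low arrays. The U3 copy SNORD3A stood near vehicle on the high arrays, whereas RN7SK was at 0.76 and 1.52 on the high MEB55 arrays. SNORD3A, a copy of the U3 small nucleolar RNA that guides cleavage of the ribosomal precursor, was at 0.15, 0.15, -0.07 and 0.37 on the high arrays and at 2.42, 2.50, 2.00 and 1.95 on the low ones, a difference of -2.07. RN7SK, the scaffold of the complex that holds the elongation kinase P-TEFb inactive, was at 0.09, 0.76, -0.20 and 1.52 against 2.80, 2.67, 2.34 and 2.13, a difference of -1.94 in its brightest probe and -3.22 in another. The U3 copies SNORD3C and SNORD3D differed by -2.21 and -2.40, and RNA28SN5, the 28S ribosomal RNA, by -1.88 in its brightest probe and -0.75 in another. The SNORD3 copies are near-identical in sequence, so that they may count as 1 signal, and how far their probes share it was not tested.

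Of 52 measured small nucleolar and other small RNAs, 6 were called lower and 0 higher, 16 lay lower with no overlap, and the median difference was -0.37. The list medians were -0.25, -0.16, -0.30 and -0.19 on the high arrays and 0.14, 0.37, -0.01 and -0.06 on the low ones, so the position far above vehicle was that of U3 and 7SK and not of the list. The H/ACA RNA SNORA57 was at -0.74, -0.71, -0.55 and -0.72 on the high arrays and at 0.33, 0.70, 0.01 and 0.30 on the low ones, so that the high arrays were below vehicle (-0.29 to 0.14). SNORA79, also called lower (-1.02), overlapped vehicle in both sets, at -0.70, -0.51, -1.34 and -0.88 against 0.28, 0.62, -0.16 and -0.08, with vehicle from -0.76 to 0.83. Host genes of small nucleolar RNAs had 0 of 12 called (median -0.15). Cytosolic ribosomal proteins had 0 of 38 called (median 0.03).

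NFKBIA, NFKBIE and BCL3, members of the family of NF-kB inhibitors, stood below vehicle on the high arrays. NFKBIA, which holds NF-kB in the cytosol, was at -0.57, -0.95, -0.77 and -1.15 on the high arrays and at 0.46, 0.09, 0.13 and 0.22 on the low ones, and NFKBIE, a related inhibitor, at -0.66, -0.56, -1.11 and -0.73 against 0.34, 0.73, 0.07 and 1.03. BCL3, a nuclear member of the same family, was at -1.40, -1.36, -1.42 and -1.68 against 0.22, -0.34, 0.21 and -0.02. CCL20 and RELB, which are outside this inhibitor family, parted from vehicle on the low arrays instead. CCL20, a chemokine that attracts CCR6-bearing lymphocytes, was at 0.45, 0.05, 0.21 and -0.19 on the high arrays and at 2.08, 2.87, 2.07 and 2.99 on the low ones, and RELB at -0.07, -0.34, -0.55 and -0.41 against 0.75, 0.72, 0.77 and 0.77. The list of NF-kB targets, chemokines and cytokines had 4 of 14 called lower and 1 higher, the latter PTGS2, with a median of -0.45. Of the 14 genes 6 lay lower with no overlap and 4 had a difference above 0.

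EGR1 and CCN1 stood above vehicle on the low arrays, and on most of the high arrays they stood below the vehicle mean. EGR1, an immediate early transcription factor, was at -0.64, -0.71, -0.56 and -0.01 on the high arrays and at 1.53, 1.70, 0.91 and 1.31 on the low ones. CCN1, a matricellular target of YAP and serum response factor, was at 0.01, -1.10, -0.63 and -1.99 against 1.63, 0.87, 1.41 and 0.72, and its relative CCN2 differed by -1.60. On the high arrays CCN1 and CCN2 were lowest with MEB55 24 h. The list of immediate early and AP-1 genes had 2 called lower, EGR1 and IER3, and 2 called higher, NR4A2 and GEM, of 19, with a median of 0.17. TLR4, the lipopolysaccharide receptor, was at 0.24, -1.0, 0.14 and -0.82 against 1.71, 0.76, 1.63 and 0.43, with the ST362 arrays above the MEB55 arrays in both sets. ESM1, an endothelial proteoglycan, was called lower (-1.55), but its vehicle arrays spanned -1.43 to 1.5 and split by replicate number.

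Ribosome biogenesis factors had 3 of 33 called lower and 0 higher (median -0.30), and 12 lay lower with no overlap. PPRC1, a coactivator related to PGC-1 and placed in this list, was at -1.02, -0.88, -1.52 and -1.70 on the high arrays and at -0.36, 0.28, -0.39 and 0.37 on the low ones. RRS1, which assembles the 5S ribonucleoprotein, was at -0.98, -0.71, -1.62 and -1.96 against -0.58, -0.01, -0.04 and 0.15, and URB2 differed by -1.04. For both genes the low MEB55 arrays stood above the ST362 array of the same time label. TRNT1, which adds CCA to transfer RNA, differed by -1.61. Cholesterol synthesis genes had 0 of 18 called (median -0.32) and 5 lower with no overlap, among them DHCR7 (-0.92) and SQLE (-0.86), enzymes of the late and middle pathway.

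**Figure D2:**
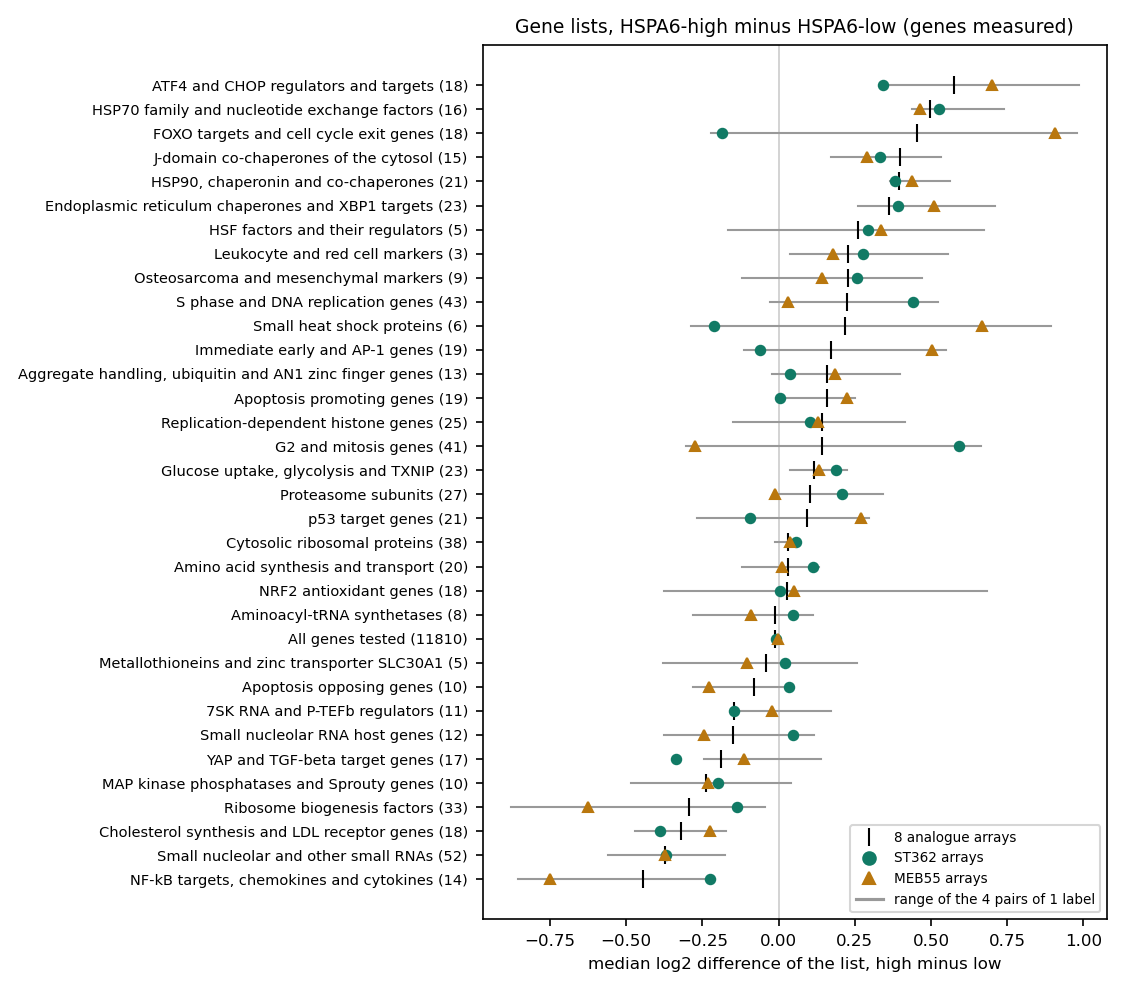
Median log2 difference, high minus low, of each gene list (horizontal axis), as a black bar over all 8 analogue arrays, with each compound as a circle or triangle, the range of the 4 pairs of 1 label as a line and the number of genes tested in brackets. The lists of ATF4 and CHOP, HSP70 and FOXO genes lie highest, at 0.58, 0.50 and 0.45 (FOXO genes -0.19 with ST362 and 0.91 with MEB55), and NF-kB targets and small RNAs lowest, at -0.45 and -0.37.

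Each set of analogue arrays was placed against the vehicle arrays. A set counted as above or below vehicle only when all 4 of its arrays lay beyond every vehicle array, and otherwise as overlapping it. Single arrays of an overlapping set can still lie outside, as MT1X did at 1.21 on the high ST362 6 h array, with vehicle up to 0.47. Of the 111 genes called higher, 70 stood above all vehicle arrays on the high arrays and overlapped vehicle on the low ones (63.1%). For 12 genes, among them HSPA5, MANF and CREB3L2, the high arrays were above and the low arrays below vehicle. In 11, among them DUT and MT1X, the high arrays overlapped vehicle and the low ones were below it. Of the remaining genes 13 overlapped vehicle in both sets, 4 (DDIT4, GDF15, NR4A2 and SLC3A2) were above it in both, and COL1A1, the collagen chain of bone, was below it in both. Of the 57 genes called lower, 22 were below vehicle on the high arrays and overlapped it on the low ones, 20 overlapped it on the high arrays and were above it on the low ones, and 9 did both. The U3 copies, RN7SK, CCL20, CCN1 and EGR1 are among the 20. Another 4 overlapped vehicle in both sets, RENBP was above it in both and ALDH1B1 below it in both.

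The 4 high arrays differed in strength. MEB55 24 h replicate 2 was the highest of the 4 for 72 of the 111 genes called higher (64.9%, against 27.4% of all genes tested), and ST362 6 h replicate 1 was the lowest for 62 (55.9%, against 23.5% of all genes). The median level of the 111 genes was 0.77, 1.08, 0.97 and 1.35 on the high arrays, and -0.13, -0.30, -0.18 and -0.32 on the low ones. For the 57 genes called lower, MEB55 24 h replicate 2 was the lowest for 32 (56.1%, against 25.6% of all genes), and the medians were -0.57, -0.67, -0.72 and -0.88 on the high arrays and 0.47, 0.68, 0.56 and 0.55 on the low ones.

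Within each compound, high minus low was computed from its own 2 high and 2 low arrays, which the compounds do not share. Over 11810 genes the differences correlated at r = 0.487 and rho = 0.386, a description over genes, which are not independent replicates. By the call rule applied to 1 compound, 134 genes were higher with ST362 and 237 with MEB55, and 66 were shared, 49.3% and 27.9% of the respective lists. Lower were 147 and 147, with 33 shared. Of the 111 genes called over both, 89 had the larger difference with MEB55 (median 1.48 against 1.09 with ST362), whose molar dose was higher. The pair labelled 24 h differed more than the pair labelled 6 h for 76 of the 111 genes with ST362 and 79 with MEB55. Whether this follows time was not tested, and it holds only as far as the labels do.

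**Figure D3:**
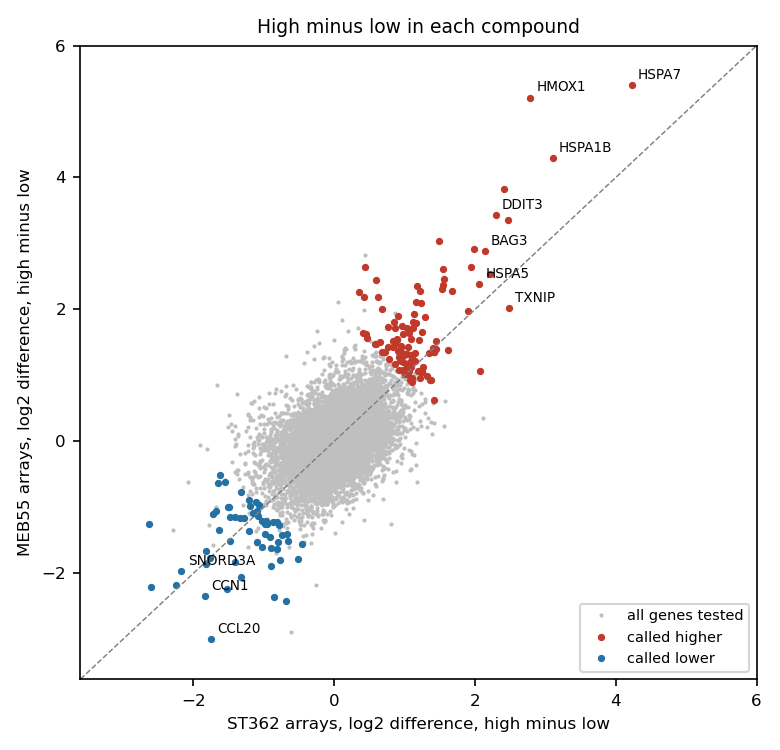
High minus low log2 difference of each gene with ST362 (horizontal) and with MEB55 (vertical), with genes called higher in red and lower in blue and a dashed line of equal difference. Most of the genes called higher lie above the diagonal, 89 of 111 having the larger difference with MEB55.

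In several gene groups the compounds lay farther apart on the low arrays than on the high ones. FOXO targets and cell cycle exit genes had array medians of 0.91 (ST362 6 h), 0.78 (MEB55 6 h), 0.60 (ST362 24 h) and 0.88 (MEB55 24 h) on the high arrays, and of 1.06, -0.15, 1.02 and -0.15 on the low ones. Their high minus low median was -0.19 with ST362 and 0.91 with MEB55, so the value of 0.45 over both joins opposite directions. On the low arrays the median difference, MEB55 minus ST362, was -1.17 over 18 genes, below 0 in 16 of them and without overlap between the compounds in 16. On the high arrays it was 0.16, with 6 of 18 not overlapping. CREBRF, a regulator of the CREB3 factors, was at 1.86, 2.15, 2.00 and 2.41 on the high arrays and at 1.44, -0.10, 1.71 and 0.13 on the low ones. TSC22D3 (GILZ), a glucocorticoid- and FOXO-induced gene, was at 1.47, 1.98, 2.28 and 3.19 against 1.25, 0.05, 1.31 and 0.23, and HBP1, a repressor of cell cycle genes, at 1.46, 1.45, 1.56 and 1.97 against 1.00, -0.17, 0.66 and -0.42. For all 3 genes only the low MEB55 arrays stood within or next to the vehicle range.

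Genes of G2 and mitosis had the mirror image. Their array medians were -0.51, -0.73, -0.57 and -0.74 on the high arrays and -1.06, -0.45, -1.06 and -0.38 on the low ones, so that the low ST362 arrays were the farthest below vehicle. On the low arrays MEB55 minus ST362 had a median of 0.62, positive in all 41 genes tested and without overlap in 36. On the high arrays it was -0.20, below 0 in 34 of the 41. For p53 targets the difference on the low arrays was -0.60, below 0 in 20 of 21 genes, and -0.01 on the high arrays. For ribosome biogenesis factors it was 0.49 on the low arrays, below 0 in 1 of 33, and -0.03 on the high ones. Over all genes tested both medians were 0.00, and 6043 of 11810 genes had no overlap between compounds on the low arrays against 3896 on the high ones. With 2 arrays of each compound in a set, no overlap is frequent, and these differences were not tested.

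**Figure D4:**
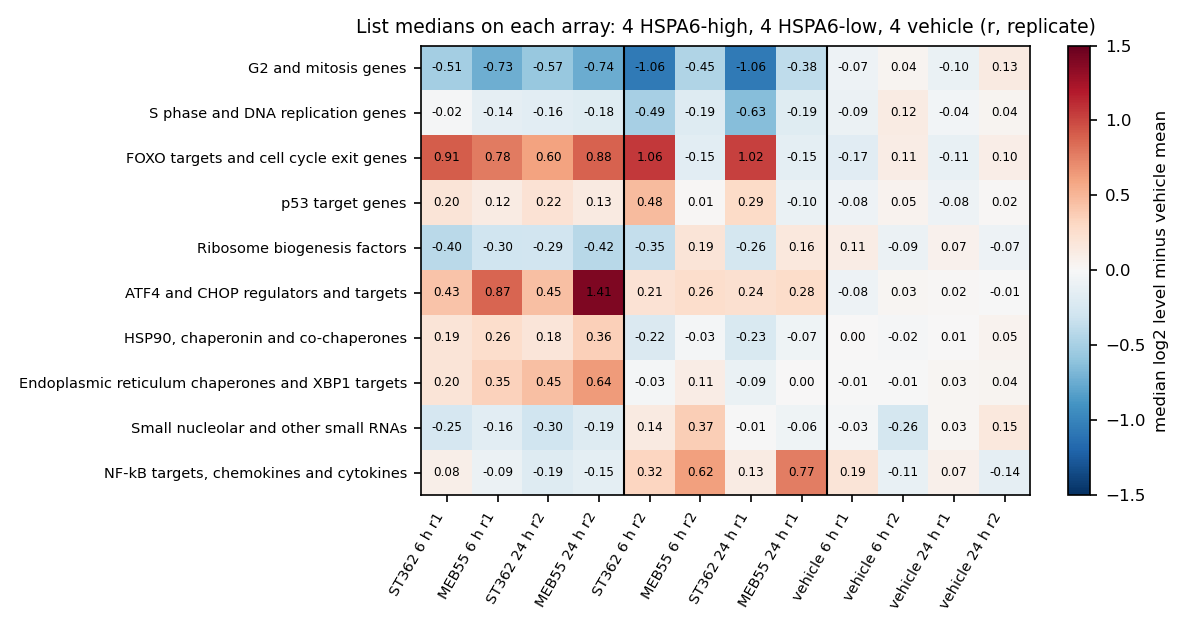
Median level of gene lists (rows) on each of the 12 arrays (columns: high, low, then vehicle), printed and coloured as log2 minus the vehicle mean. FOXO targets lie between 0.60 and 1.06 on all analogue arrays except the low MEB55 arrays, at -0.15, and G2 and mitosis genes lie lowest on the low ST362 arrays, at -1.06.

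The time labels were read on genes chosen by their values on the vehicle arrays, among genes that had passed the detection filter on the analogue arrays. On the 4 vehicle arrays 29 genes were at least 2-fold higher at the 24 h label than at the 6 h label without overlap, and 25 were lower. Whether these genes follow time was not tested. This reading was chosen after the data were seen. On the high arrays the 29 genes had a median difference, 24 h label minus 6 h label, of 1.04 and were above 0 in 29 of 29, and the 25 genes had a median of -1.35 and were above 0 in 1 of 25. On the low arrays the differences had the opposite sign: the median was -0.69 for the 29 genes, 3 of them above 0, and 1.02 for the 25 genes, 25 of them above 0. Over all genes tested 47.7% and 47.2% were above 0 on the high and low arrays. The same reversal was present within each compound, with 28 of 29 (ST362) and 29 of 29 (MEB55) above 0 on the high arrays and 3 and 5 of 29 on the low ones.

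AKR1C2, an aldo-keto reductase of steroid metabolism, was at -1.84, -0.92, 1.28 and 1.49 on the vehicle arrays (6 h replicates 1 and 2, then 24 h), at -1.78, -1.58, 0.71 and 1.34 on the high arrays and at 2.98, 2.08, -0.50 and 0.20 on the low ones. EPCAM, an epithelial adhesion molecule, was at 0.73, 0.60, -0.69 and -0.63 on vehicle, at 0.49, 0.70, -0.83 and -0.79 on the high arrays and at -0.23, -0.50, 1.14 and 0.42 on the low ones. AKR1C2 is near-identical in sequence to AKR1C3, and these genes were chosen after their values were seen. NQO1, a quinone reductase and NRF2 target, was higher at the 24 h label by 1.10 on vehicle and by 0.73 on the high arrays. On the low arrays the difference was -0.57. Over 11810 genes the difference between time labels correlated at r = 0.606 between vehicle and high arrays, at -0.582 between vehicle and low arrays and at -0.386 between high and low arrays. These pairs of sets share no arrays, and the values describe genes and carry no test. The paper reports heat shock genes as raised after the shorter treatment, and small RNA genes as raised after the longer one. Here HSPA1A and HSPA1B stood above vehicle on the high arrays of both time labels, and SNORD3A and RN7SK on the low arrays of both. Whether the high and low arrays are the shorter and longer treatments, or time labels were exchanged within either set, was not tested. Every value given by time label therefore holds only as far as the labels do.

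**Figure D5:**
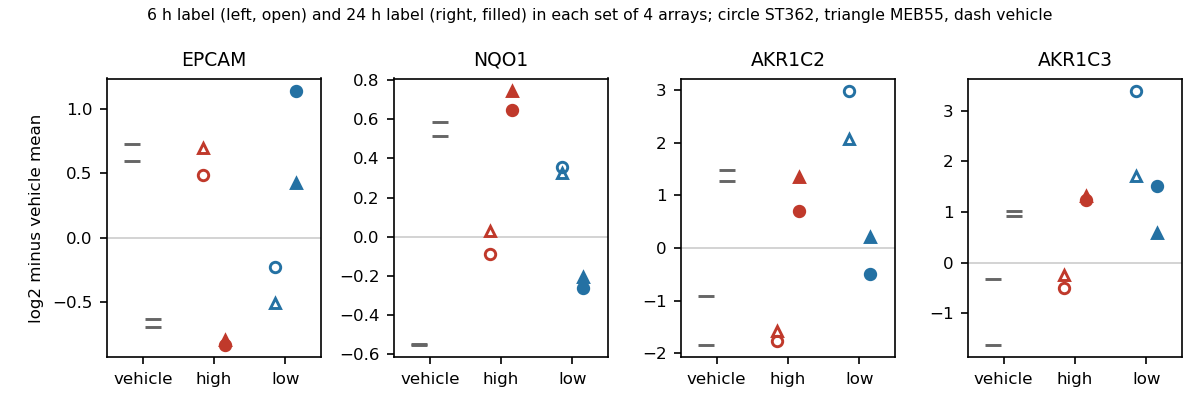
Levels of EPCAM, NQO1, AKR1C2 and AKR1C3 (log2 minus the vehicle mean, vertical axis) on vehicle, high and low arrays, 1 symbol per array, with the 6 h label on the left of each set and the 24 h label on the right. AKR1C2 lies higher at the 24 h label on vehicle and high arrays, where it reaches 1.49 and 1.34, and lower on the low arrays, from 2.98 and 2.08 to -0.50 and 0.20.

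The comparisons by label were tested in a limma fit of the 6 groups, in which each analogue group averages 1 high and 1 low array. No probe of 20766 passed in any of the 8 comparisons (0.0%) after Benjamini-Hochberg adjustment. The lowest adjusted p was 0.99998 for 24 h against 6 h over both analogues, where 266 probes had an unadjusted p under 0.05. For the 111 genes called higher this contrast ranged from -0.61 to 0.57, with a median SE of 0.427, against 0.170 over all genes tested, and for the 57 called lower the median SE was 0.419. By the rule, each of these groups holds 1 high and 1 low array. Against vehicle the lowest adjusted p was 0.754 for ST362 at 6 h (1153 probes under an unadjusted 0.05), 0.517 at 24 h (1531), 0.364 for MEB55 at 6 h (876) and 0.143 at 24 h (1020).

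MEB55 was compared with ST362 at matched mass and time label, at a higher molar dose of MEB55. Unadjusted p was under 0.05 for 504 probes at 6 h and 678 at 24 h (lowest adjusted p = 0.999829 and 0.995111), and for 1246 over both times (lowest adjusted p = 0.189). The difference of TLR4 over both times was -1.09 (95% interval -2.12 to -0.06, limma adjusted p = 0.823), that of CREBRF -0.61 (-1.71 to 0.50, adjusted p = 0.918) and that of HSPA1A -0.53 (-2.67 to 1.62, adjusted p = 0.975). HMOX1 had 0.53 (-2.34 to 3.41, adjusted p = 0.983). These intervals are wide, and a p that misses the threshold does not show that the compounds act alike.

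The analogue arrays were alike in technical measures, and 1 vehicle array stood apart. The median signal of the analogue arrays was 80.7 to 83.5, and 42.7% to 45.6% of their probes were detected. On vehicle 6 h replicate 1, which is part of the zero of every level, the median signal was 90.4, the 75th percentile 149.3 (115.1 to 125.4 on the others) and 47.4% of probes were detected. High minus low differences use the vehicle arrays only through the joint normalization. Of 10 osteosarcoma and mesenchymal markers 8 were detected on all 12 arrays, and their summed level was 14620 to 19690 on the high arrays, 14680 to 16390 on the low ones and 15660 to 20560 on vehicle. Of 8 epithelial markers EPCAM alone was detected on all 12 and 4 were on none, with summed levels of 268.6 to 488.6 on the high arrays and 287.9 to 610.2 on the low ones. Of 8 leukocyte and red cell markers 1, CD68, was on all 12 and 3 were on none, with 402.0 to 572.8 against 367.3 to 507.7. In all 3 lists the high and low arrays overlapped.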

How the data were processed

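RNA of U2OS cells was hybridised to 12 Illumina HumanHT-12 bead arrays. The deposited intensity values are mean bead signals per probe from the authors' GenomeStudio run (version not given in the sources used here), with no background subtraction or normalization. The deposited detection p-values compare each probe with the negative controls of its array. The authors' series values equal these signals after quantile normalization within 0.364% and served as an alternative. The methods used a Partek model of time and treatment. The 6 h arrays are stated to come from independent experiments. For 24 h this is not given in the sources used here, so p-values measure only the spread between these samples.

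Signals of 47313 probes were corrected and quantile normalized with neqc of limma 3.58.1 (R 4.3.3; offset 16, log2). Probes detected at p under 0.05 on at least 4 of 8 analogue arrays were kept, 20766 in all, 5083 of them without a symbol. On the whole array 30109 probes carry 1 symbol, 8 several and 17196 none. A gene was read from its brightest probe. Array number, 2 per labelled group, limits the precision (median residual SD 0.238 in the fit of 6 groups).

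Labelled groups were tested with lmFit and eBayes and checked on simulated data, as was the high and low description. The members, lists and rule were chosen with earlier results of these data known. Named are the marker genes, the 15 largest differences per direction in part, up to 6 members per list, and others with a well-known role. RENBP and ALDH1B1 are named as counts of 1. Alternatives covered background, offset, scaling, filter, probe choice, fold, covariate, replicate block and each array left out. The authors' qRT-PCR and protein measurements were not used here.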

Additional observations from a re-analysis of the deposited data

Results flagged for a closer look

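In 16 cases 1 array stood apart from the other 3 of its set by Dixon's criterion, out of 270 sets of 4 arrays looked at. Chance alone marks about 1 in 20 sets, so these are given as values only (log2 minus the vehicle mean). DNAJB1 was marked in both sets, at 2.76 on MEB55 24 h replicate 2 among the high arrays and at -0.028 on ST362 6 h replicate 2 among the low ones, where the set spanned -0.128 to -0.028.

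Among the high arrays, MEB55 24 h replicate 2 was highest for POLD1, the catalytic subunit of DNA polymerase delta (0.31). ST362 6 h replicate 1 was highest for LIG1, a DNA ligase (0.20), and MEB55 6 h replicate 1 for BID, a proapoptotic BCL2 relative (0.54). ST362 24 h replicate 2 was highest for the mitotic kinesin KIF14 (0.22), for hexokinase HK1 (0.0675) and for SNORA57 (-0.55).

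Among the low arrays, ST362 6 h replicate 2 was highest for ARRDC4, a relative of TXNIP (0.21), and lowest for SRXN1, sulfiredoxin (0.18), BNIP3, a mitophagy receptor (-0.31), and JUNB, an AP-1 subunit (0.43). ST362 24 h replicate 1 was lowest for MEPCE, the capping enzyme of 7SK (-0.79), and for the proteasome subunit PSMD8 (-0.84). MEB55 24 h replicate 1 was highest for the phosphatase CDC25C (-0.35) and the glycolytic enzyme TPI1 (-0.0524).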

How the results depend on the processing

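The counts of 111 genes higher and 57 lower were 34 and 20 with no background correction, 34 and 20 on the authors' series values, 53 and 31 with an offset of 50, and 406 and 341 at 1.5-fold. They were 105 and 64 with 75th percentile scaling, 112 and 57 with all probes, 103 and 52 with the mean of a gene's probes, 109 and 57 with a filter by labelled group, and 111 and 57 without the compound term. Without 1 array they ranged from 104 to 135 and from 50 to 76. Labelled comparisons gave 0 calls except 2 for MEB55 against ST362 at 6 h, 2 over both times and 2 against vehicle without MEB55 6 h replicate 1, and 2 against vehicle with 75th percentile scaling, where the cause was not tested. Counts without 1 array thus ranged from 0 to 2.

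With the replicate number as a block the counts were 111 and 57, which is fixed by the design, since both sets hold 2 arrays of each number, and the labelled comparisons gave 0. The numbers are not taken to pair the samples: deviations of same-numbered arrays correlated at 0.497 and 0.484 between the analogues at 6 h and 24 h, at 0.376 between vehicle at both times, and at -0.375 and -0.396 between times for ST362 and MEB55.

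Of 2295 values of named genes under the alternatives 153 moved by more than the spread and 0 called genes changed sign. RPL13, a ribosomal protein gene below the fold minimum, went from -0.32 to 0.10 with the mean of its probes. The list medians of amino acid, aminoacyl-tRNA, immediate early, metallothionein and NRF2 genes changed sign in at least 1 setting, so no direction is read from them. Detection limits the weakest genes, since differences shrink near background. Of 45 other probes of named genes, 41 had the sign of the brightest.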
